A study of Drosophila mojavensis with 137 samples.

Results

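The 80 transcripts described here were higher in virgin flies of both sexes reared on organ pipe cactus than in virgin flies reared on agria cactus, and they were chosen for that difference from 14528 transcripts measured in whole adult Drosophila mojavensis. For each transcript the mean of the virgin arrays on organ pipe minus that on agria was taken within Las Bocas and within Punta Prieta and averaged over both populations, once in females and once in males. Transcripts were eligible if virgin females and males differed by at most 2 on the log2 scale and if 4 further differences were below 0.2 in size, which left 8370: Punta Prieta minus Las Bocas in virgin females and in virgin males, and mated minus virgin in Punta Prieta females and in agria males. The 80 with the highest smaller value of the female and the male difference are the members. Because virgin arrays chose them, their virgin diet differences are given as a description, and diet was tested in mated flies. The contrast between populations and the slope on development time were fitted too, but on arrays that include those of the choice, and are no independent support. The name of the set holds for the virgin flies that chose it. In mated flies no member passed the test of diet, but a difference of the size seen in virgins was not detectable there for a typical member.

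Drosophila mojavensis breeds in rotting columnar cacti of the Sonoran Desert region. Agria is its main host in Baja California and organ pipe its main host in mainland Sonora. The rots differ in chemistry, with sterol diols and medium-chain fatty acids among the compounds that set organ pipe apart. Larvae feed in the rot, so the cactus is the food during development and its effects on the adult are those that last past eclosion. The deposited table names transcripts by ID and does not pair the IDs with genes, and 0 of the 15130 genes of the RefSeq table used here carried one of the IDs. No function is therefore given to any member.

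The flies were wild-type. Those of the Las Bocas population come from mainland Sonora and those of the Punta Prieta population from the Baja California peninsula. They were reared on fermented agria or organ pipe cactus, and were collected as virgin or mated females or males after 14 to 18 days of development from egg to adult. Each of the 137 arrays (1 colour, Cy3) held RNA of whole flies of 1 population, diet, sex, mating state and development time, so that fewer cells of a type and less RNA per cell cannot be told apart. The populations carry stock names of different years, so population and stock year cannot be told apart either. Of the virgin arrays, 47 were of flies on agria (11 Las Bocas females, 11 Punta Prieta females, 13 Las Bocas males, 12 Punta Prieta males) and 48 of flies on organ pipe (8, 12, 13 and 15). Of the mated arrays, Punta Prieta supplied 5 agria and 7 organ pipe female arrays and 5 agria and 11 organ pipe male arrays, and Las Bocas 6 agria and 2 organ pipe female arrays and 5 agria and 1 organ pipe male arrays. Development time was not balanced over diets: 17 of 48 virgin arrays on organ pipe were of 17 or 18 days, against 2 of 47 on agria. Whether replicates are separate cultures is not in the labels, so every test measures only the spread between these arrays.

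On the first principal component of all transcripts 2 arrays lay on the side of the other sex, replicate 1 of the mated Las Bocas females of 16 days on organ pipe and replicate 2 of the mated Punta Prieta males of 16 days on organ pipe, as labelled. The GEO description of the first, and of replicate 2 of its group, names virgin Punta Prieta males instead. The description of replicate 3 of the Las Bocas agria virgin females of 16 days gives 15 days. Neither array of the other sex's profile entered the choice of the members. The fits left both out (135 arrays), and values with all 137 are given for diet in mated Punta Prieta males and mated Las Bocas females, whose groups hold these arrays. The SD of an array's log2 values ran from 1.597 to 1.902 over the 137 arrays and the array medians from 11.24 to 11.5.

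The differences that chose the members were small. The median member was higher on organ pipe by 0.21 in virgin females and by 0.21 in virgin males (log2 differences), which are folds of 1.16 and 1.16. The female differences ran from 0.14 to 0.47 and the male differences from 0.14 to 1.17, against medians of -0.02 and -0.01 over all 14528 transcripts. In 46 members the male difference was the larger, in 34 the female one, and only 9 members exceeded 0.25 in both sexes. The last member, FBtr0174938, had a smaller difference of 0.1421, and the first transcript outside, FBtr0170022, had 0.1419, so the boundary separates transcripts that are all but equal. In the mirror of the rule, the 80 eligible transcripts lowest on organ pipe in both sexes, the larger of the female and the male difference reached -0.27, where the smaller one of the members reached 0.47.

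**Figure D1:**
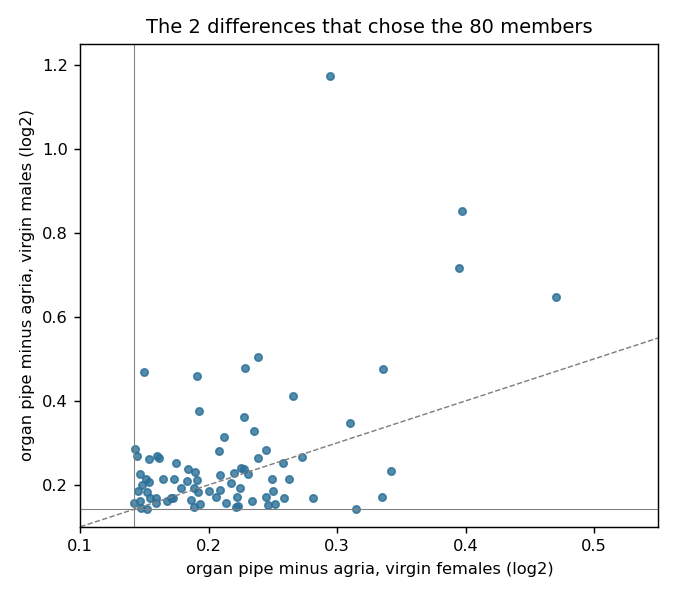
Organ pipe minus agria in virgin females (horizontal axis, log2) and in virgin males (vertical axis, log2) for each of the 80 members (points). The thin lines mark the lowest smaller difference among the members, 0.1421, and the dashed line equality. Most members crowd near the lower corner, and a few stand far above the dashed line, up to 1.17 in males.

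FBtr0174959 had the highest smaller difference, 0.47 in virgin females and 0.65 in virgin males, folds of 1.39 and 1.57. In virgin males its level was 11.76 ± 0.351 (SD, n = 13) on agria and 12.36 ± 0.435 (SD, n = 13) on organ pipe in Las Bocas, and 11.82 ± 0.384 (SD, n = 12) and 12.52 ± 0.515 (SD, n = 15) in Punta Prieta. In virgin females it was 12.46 ± 0.339 (SD, n = 11) and 12.74 ± 0.429 (SD, n = 8) in Las Bocas, and 12.22 ± 0.339 (SD, n = 11) and 12.88 ± 0.353 (SD, n = 12) in Punta Prieta. The organ pipe mean was thus the higher in all 4 virgin comparisons, and the arrays of the diets overlapped in each.

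FBtr0172869, second by the rule, was higher in virgin males than in virgin females, with a difference of -0.97 (female minus male). Its diet difference was 0.40 in virgin females and 0.85 in virgin males. In Las Bocas virgin males it ran from 9.81 to 11.17 on agria, with a median of 10.34, and from 10.69 to 12.68 on organ pipe, with a median of 11.22. In Punta Prieta virgin males the ranges were 9.72 to 11.11 on agria and 10.07 to 13.38 on organ pipe, so that here too they overlapped.

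FBtr0166287 had the largest male difference of all members, 1.17, a fold of 2.26, beside 0.29 in females. In Las Bocas virgin males its 13 agria arrays lay between 10.71 and 11.65 and its 13 organ pipe arrays between 11.90 and 12.85. These arrays chose the member, so their separation is a description. The share of all transcripts separated in this way in these males was not counted. In Punta Prieta virgin males agria arrays ran from 9.97 to 12.02 and organ pipe arrays from 10.48 to 14.50. The highest value was on the array of 17 days, replicate 3, and the lowest on the array of 16 days, replicate 4, and these Punta Prieta organ pipe males had the larger spread, with an SD of 0.995 against 0.292 in Las Bocas.

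The members covered most of the range of signals on the array and both directions of sex difference. Their mean log2 signals ran from 7.25 to 14.86, within 6.18 to 15.68 for all transcripts, and signals of different transcripts are not compared as abundance. Their sex difference (female minus male, virgins) ran from -1.10 to 1.26, with 39 higher in females, 41 higher in males and 64 within 0.5 of equality. That range is narrower than the limit of 2 that the rule allowed.

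Within the virgin flies the difference was not equally spread over populations. All 80 members were higher on organ pipe in Punta Prieta females (median 0.36) and all 80 in Punta Prieta males (median 0.28). In Las Bocas, 76 of 80 were higher in males (median 0.17) and 61 of 80 in females (median 0.07). Of the 80, 58 were higher on organ pipe in all 4 comparisons, 21 in 3 and 1 in 2. These counts share the arrays of the rule and are a description.

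The difference of the diet effect between populations was fitted on the virgin arrays that chose the members, so it is given as a description and nothing is read from its counts. In limma's fit the effect in Punta Prieta minus that in Las Bocas was positive for 77 of 80 members in virgin females, with a median of 0.30 and a range of -0.26 to 0.60, where the median of all transcripts was -0.03 and 44.9% of them were positive. None of the 80 passed an adjusted p of 0.05 (limma, Benjamini-Hochberg over 14528 transcripts), and the background was 0% of transcripts. With array weights 2 members passed (2.5%) against 3.27% of all transcripts, and without replicate number 2 there were 4 (5%) against 6.32%, so neither share is above its background. At an unadjusted p below 0.05, 25 of 80 members were positive and 0 negative, against 11.7% of all transcripts positive and 5.53% negative. In virgin males 62 of 80 were positive, with a median of 0.11, and 0 passed against a background of 0%. Of all transcripts 45.0% were positive in virgin males, with a median of -0.017. At an unadjusted p below 0.05 in males 3 members were positive and 0 negative, against 2.35% and 1.3% of all transcripts. The mirror set went the opposite way: 0 of its 80 transcripts were positive in virgin females, with a median of -0.37, and 7 of 80 in virgin males, with a median of -0.23. In virgin males the member score also varied more in Punta Prieta, with an SD of 0.204 on agria and 0.33 on organ pipe, than in Las Bocas, with 0.122 and 0.147. What part the choice of the members has in this contrast was not tested.

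FBtr0167747 had the largest such difference in females, 0.60 (SE 0.258). Its level in Punta Prieta virgin females was 9.73 ± 0.418 (SD, n = 11) on agria and 10.34 ± 0.428 (SD, n = 12) on organ pipe, and in Las Bocas virgin females 9.88 ± 0.412 (SD, n = 11) and 9.95 ± 0.486 (SD, n = 8). FBtr0172508 followed with 0.59 (SE 0.286). FBtr0165853 went the other way, with -0.26 (SE 0.288), as did FBtr0166625 with -0.15 (SE 0.18). In males FBtr0166009 had 0.54 (SE 0.17), at 7.98 ± 0.356 (SD, n = 12) on agria and 8.48 ± 0.497 (SD, n = 15) on organ pipe in Punta Prieta and 8.32 ± 0.289 (SD, n = 13) and 8.27 ± 0.231 (SD, n = 13) in Las Bocas. FBtr0165853 had 0.44 in males, FBtr0172869 -0.32 and FBtr0167406 -0.23. With array SD as a covariate the female median was 0.18 with 65 of 80 positive and the male median 0.065 with 57 positive. Of all transcripts 48% were positive in females and 44% in males under that setting. With 15 and 16 day arrays only the female median was 0.19 with 66 of 80 positive, and the male median was -0.10 with 19 positive. The shares of all transcripts were then 43.7% in females and 41.9% in males. Without the Punta Prieta organ pipe virgin male array of 17 days, replicate 3, the male median was 0.047.

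The members varied together from array to array around their group means. A member score was taken as the mean deviation of the 80 from their means over all arrays, in log2 units. After the means of the 16 combinations of population, diet, sex and mating and the slopes in days were removed, the median correlation between pairs of members was 0.449 over 42 virgin female arrays and 0.446 over 53 virgin male arrays. Over all pairs of eligible transcripts it was 0.0195 and 0.0182. The pairs share arrays, and these correlations are a description. They were not taken for the mirror set, so the co-variation is not shown to be particular to the members. In mated flies, whose diet difference the rule did not use, the median pair correlation was 0.54 over 19 female and 0.3 over 21 male arrays. With the residual mean of the other 79, each member's own residual correlated at 0.179 to 0.907 over 95 virgin arrays, with a median of 0.677, and 66 of 80 were above 0.5. The lowest was FBtr0167406.

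**Figure D2:**
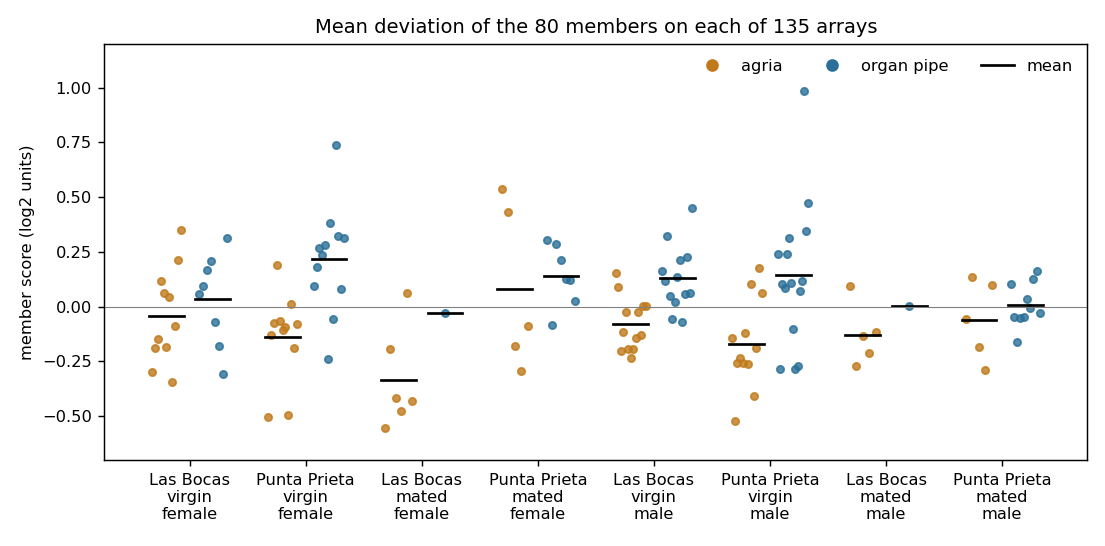
Member score (vertical axis, mean deviation of the 80 members in log2 units) of each of 135 arrays (points) by population, mating state and sex, on agria and organ pipe, with group means as black lines. The highest array, at 0.99, is a Punta Prieta organ pipe virgin male, and 2 of 5 Punta Prieta agria mated female arrays lie at 0.54 and 0.43, apart from the other 3.

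The score also moved with the spread of the array's values. Members correlated with the array's SD, both as residuals, at a median of 0.559 in virgin females (76 of 80 members positive), 0.407 in virgin males (74), 0.585 in mated females (73) and 0.507 in mated males (76), over 42, 53, 19 and 21 arrays. Over all transcripts the medians were 0.175, 0.194, 0.174 and 0.145. The mirror set had medians of -0.925, -0.883, -0.921 and -0.928. The mean array SD of virgin females was 1.774 on agria and 1.788 on organ pipe, and of virgin males 1.794 and 1.802. With array SD as a covariate in the fit the virgin diet difference of the members had a median of 0.18 in females and 0.15 in males. Without it but with days the medians were 0.17 and 0.17. All 80 were positive in each sex with the covariate, the lowest at 0.066 in females and 0.0081 in males. These fits use the virgin arrays that chose the members for a positive difference, so the signs are a description. What part array spread has in the diet difference was not tested. Once the slope on array SD was removed from the values, the rule chose 50 of the 80 again. The present 80 then had a median difference of 0.163 in virgin females, against 0.208 as given. In virgin males it was 0.189 against 0.213.

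**Figure D3:**
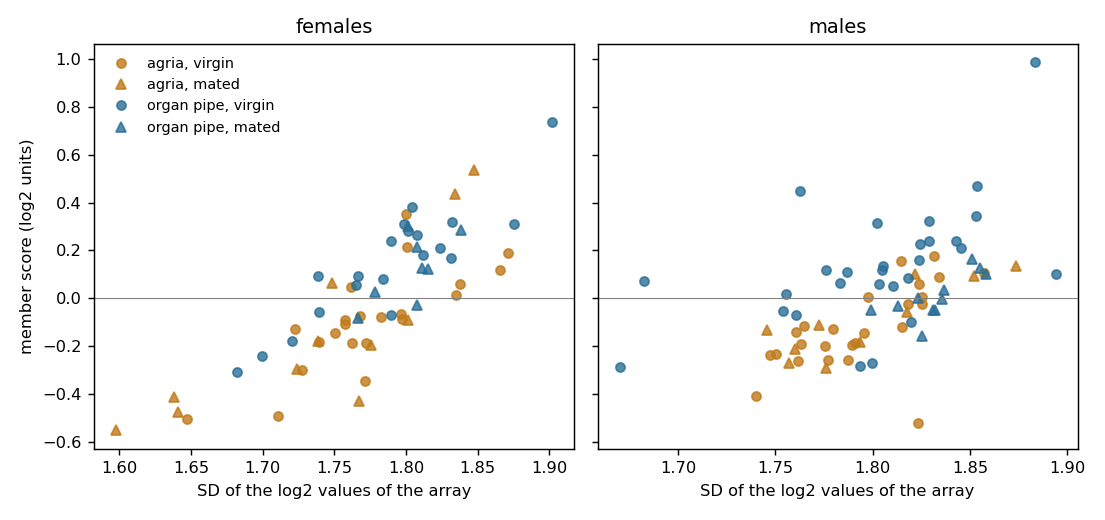
Member score (vertical axis, log2 units) against the SD of the log2 values of the array (horizontal axis) for 61 female and 74 male arrays, by diet (colour) and mating state (shape). Arrays of low spread have low scores in females, down to -0.55 at an SD of 1.60, and organ pipe and agria arrays overlap over most of the range.

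The choice also rested on particular arrays. Without the arrays of replicate number 1 the rule chose 10 of the 80 again, without number 2 it chose 31 and without number 3 it chose 38. Without the 6 arrays of weakest separation between the sexes it chose 51, with arrays of 15 and 16 days alone 27, and after removal of the Punta Prieta organ pipe virgin male array of 17 days, replicate 3, it chose 60. Without replicate number 1 the virgin diet difference of the present 80 had a median of 0.07 in females, with 63 positive, and of 0.23 in males, with 80 positive. The virgin arrays left are arrays of the rule, so these counts are a description.

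In mated flies, whose diet difference did not choose the members, no member passed the test of diet in either population or sex. In Punta Prieta mated females (7 organ pipe and 5 agria arrays) 50 of 80 members were higher on organ pipe, with a median of 0.038 and a range of -0.25 to 0.26, where 46.9% of all transcripts were higher and their median was -0.0062. None passed in limma, with the smallest adjusted p among members at 0.99999 and a background of 0% of transcripts called. At an unadjusted p below 0.05 there were 0 members, against 0.11% of all transcripts higher and 0.179% lower. By design the estimate correlates at -0.132 with the filter on mating in females, which used these arrays averaged over diets. The median SE of a member was 0.183, so a difference of the size seen in virgins (0.21) was not detectable here for a typical member.

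FBtr0174959, first by the rule, shows the spread behind this. In Punta Prieta mated females on agria it was at 13.45, 13.34, 11.68, 12.10 and 11.97, and on organ pipe it ran from 12.10 to 13.07 with a median of 12.64. Of the agria arrays 2 lay above and 3 below all organ pipe arrays, and its diet difference was -0.04 (SE 0.25). The 2 high agria arrays, of 14 days and of 15 days, both replicate 1, also had the highest member scores of that group, 0.538 and 0.435, against -0.294 to -0.0895 for the other 3. Their array SDs were 1.847 and 1.834, against 1.724 to 1.801. Without these 2 arrays, an alternative chosen after seeing the data, 78 of 80 members were higher on organ pipe, with a median of 0.28, against 46.7% of all transcripts, and 0 passed. As the 2 were removed for their high member scores, a shift of the members toward organ pipe follows from the removal itself. Without all arrays of replicate number 1 the median was 0.28, with 75 of 80 higher against 50.2% of all transcripts. That setting removes both high agria arrays along with the agria array of 16 days. It leaves 2 agria arrays, of scores -0.179 and -0.294, the lowest of that group. With 15 and 16 day arrays only, which drops the agria array of highest score, 0.538, the median was 0.19, with 79 higher against 50%. Both alternatives thus remove agria arrays of high score, and neither is independent of the removal above.

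Among the members, FBtr0170094 had the largest positive effect in Punta Prieta mated females, 0.26 (SE 0.254), and FBtr0163329 followed with 0.25 (SE 0.279). FBtr0172508 had -0.25 (SE 0.275) and FBtr0172712 -0.23 (SE 0.22). All 4 had a limma adjusted p of 0.99999. FBtr0163329 was at 12.77 ± 0.888 (SD, n = 5) on agria and 13.07 ± 0.431 (SD, n = 7) on organ pipe, a difference smaller than the spread on agria.

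In Punta Prieta mated males (10 organ pipe arrays in the fit and 5 agria arrays) 48 of 80 members were higher on organ pipe, with a median of 0.063 and a range of -0.58 to 0.44. Of all transcripts 59% were higher, with a median of 0.024, so the members' count was near the background. None of the members passed. Over all transcripts 0% passed as higher and 0.0138% as lower, and at an unadjusted p below 0.05 there were 0 members higher and 2 lower (backgrounds of 0.626% and 1.45%). Every organ pipe array lay above every agria array for 0 members, against 0.0826% of all transcripts in these males and 0.0138% in the females. The agria arrays of this comparison also entered the filter on mating, with which its estimate correlates at -0.482 by design. With all 137 arrays 48 of 80 were higher, with a median of 0.08, and 0 of all transcripts passed in either direction. With array SD as a covariate 40 were higher, with a median of -0.00093. The median SE of a member was 0.168, so a difference of the size seen in virgin males (0.21) was not detectable for a typical member here either.

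FBtr0174959 had the largest effect in these males, 0.44 (SE 0.229, limma adjusted p = 0.999). On agria it was at 12.47, 11.74, 11.80, 11.64 and 11.84, and on organ pipe it ran from 11.38 to 12.79 with a median of 12.47. Of the 5 agria values 4 lay below the organ pipe median by more than 0.5, and the groups overlapped. FBtr0170094 followed with 0.30 (SE 0.233). FBtr0173966 had -0.58 (SE 0.178, adjusted p = 0.999), at 11.95 ± 0.352 (SD, n = 5) on agria and 11.41 ± 0.262 (SD, n = 10) on organ pipe, and FBtr0171603 had -0.41 (SE 0.173, adjusted p = 0.999). In virgin males, by the rule, the diet difference of FBtr0173966 was 0.26.

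FBtr0166287, with the largest difference in virgin males, had a diet difference of opposite sign in mated males. In Punta Prieta mated males it was at 10.73, 12.16, 10.77, 10.55 and 12.07 on agria and from 10.80 to 11.44 on organ pipe, with a diet difference of -0.32 (SE 0.278). Virgin Punta Prieta males on organ pipe had 12.40 ± 0.995 (SD, n = 15), and their mated counterparts 11.01 ± 0.19 (SD, n = 10). In Las Bocas the 13 virgin organ pipe males were at 11.90 or above, and the single mated organ pipe male array was at 11.18, within the range of 11.03 to 11.73 of the 5 mated agria arrays. Because virgin arrays were selected for it, the difference between virgin and mated flies was not tested.

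In Las Bocas, organ pipe was represented by 1 mated female array in the fit and 1 mated male array, each assumed to vary like the other groups. The female array is replicate 2 of its group, whose GEO description names virgin Punta Prieta males, though its profile lies on the female side. The whole contrast in females therefore rests on an array whose population and mating state are in doubt. In females 60 of 80 members were higher on organ pipe, with a median of 0.18 against 0.06 over all transcripts, and 55.8% of all transcripts were higher. None passed, against 0.00688% of all transcripts passing as higher. At an unadjusted p below 0.05, 6 members were higher and 0 lower, where 8.39% and 6.14% of all transcripts were. FBtr0172508 had 1.12 (SE 0.497, limma adjusted p = 0.342), FBtr0172005 1.01 (SE 0.441, adjusted p = 0.342), FBtr0171038 -0.35 (SE 0.298, adjusted p = 0.474) and FBtr0168127 -0.32 (SE 0.386, adjusted p = 0.617). With all 137 arrays, which add the array of male profile, 54 of 80 were higher, with a median of 0.081, and FBtr0171038 had 0.48, with 0 members passing against 19.4% of all transcripts. The agria mated females include 3 arrays of the lowest spread, and the mean array SD was 1.694 on agria and 1.807 on the organ pipe array. With array SD as a covariate 30 of 80 were higher, with a median of -0.067, and with array weights 14 members passed (17.5%), below the 31.9% of all transcripts that did. The organ pipe array lay above every agria array for 27 of 80 members, against 19.7% of all transcripts.

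In Las Bocas mated males 46 of 80 were higher, with a median of 0.068 against 0.026 and a range of -0.96 to 1.21, and 0 passed (background 0%). Of all transcripts 54.2% were higher on organ pipe in these males, so the members' count was near the background. The agria arrays entered the filter on mating here too, with which the estimate correlates at -0.243 by design. Before adjustment 3 members were higher and 3 lower at a p below 0.05, against 2.12% and 1.18% of all transcripts. FBtr0166607 had 1.21 (SE 0.499) and FBtr0173835 0.82 (SE 0.378), FBtr0175580 -0.96 (SE 0.442) and FBtr0173510 -0.79 (SE 0.251), each with a limma adjusted p of 0.899. FBtr0166607 was at 9.79 on the organ pipe array, above the range of 8.19 to 9.05 of the 5 agria arrays. A tally was taken over the Punta Prieta females, Punta Prieta males and Las Bocas females. It left out the Las Bocas males, in whom 34 of 80 members were lower on organ pipe. In the tally 21 of 80 members were higher on organ pipe in all 3, where 18.6% of all transcripts were. Lower in all 3 were 0 members, where 12.2% of all transcripts were. The Las Bocas females rest on 1 organ pipe array and the members vary together, so nothing is read from these counts.

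**Figure D4:**
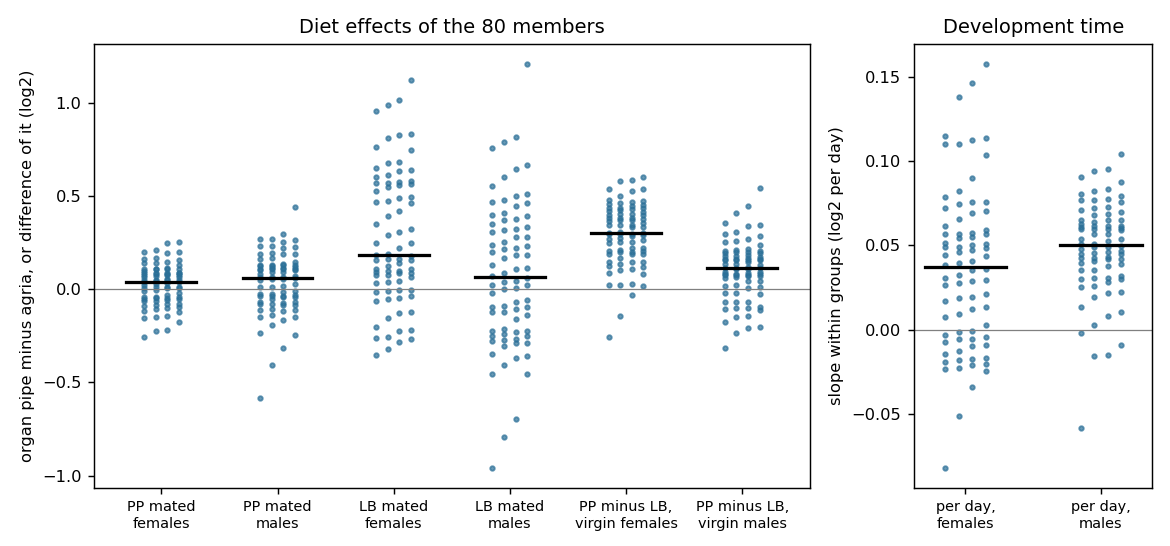
Effects of each of the 80 members (points) with their median (black line). The left panel shows organ pipe minus agria in mated flies of Punta Prieta (PP) and Las Bocas (LB) and the difference of the virgin diet effect between populations (log2), and the right panel the slope on development time within groups (log2 per day). The medians in mated flies lie between 0.038 and 0.18, and that of the difference between populations in virgin females at 0.30.

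Development time was fitted within the 16 combinations of population, diet, sex and mating, mostly on the virgin arrays of the choice. Since the rule made no allowance for days and organ pipe arrays were of later days, a transcript with a slope could be chosen through it, and the direction of the members' slopes is not independent of the choice. In males 75 of 80 members had a positive slope, with a median of 0.05 log2 per day and a range of -0.059 to 0.10, where 52.7% of all transcripts were positive with a median of 0.0021. In females 57 of 80 were positive, with a median of 0.037 per day and a range of -0.082 to 0.16, where 54.5% of all transcripts were. No member passed in either sex (limma, background 0% in both). With array weights 10 members passed in females (12.5%), below the 22.5% of all transcripts, and without replicate number 1 there were 4 in males (5%), against 1.04%. The mirror set had 0 of 80 positive slopes in females, with a median of -0.13 per day, and 5 of 80 in males, with a median of -0.04. At an unadjusted p below 0.05 there were 11 members with a positive slope in males and 6 in females, none with a negative one, where 4.56% and 10.9% of all transcripts had positive and 4.23% and 8.13% negative ones. The 6 of 80 in females are thus near the background. Since the members move together, the counts of positive slopes are not counts of independent observations.

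The slope in males depended on the ends of the range of days. With 15 and 16 day arrays only, 20 of 80 members were positive and the median was -0.032, where 56.9% of all transcripts were positive. On agria alone 55 of 80 were positive in males (median 0.035), against 62.4% of all transcripts, so that count was near the background. On organ pipe alone 74 were positive (median 0.059), against 47% of all transcripts. Without the Punta Prieta organ pipe virgin male array of 17 days, replicate 3, 74 were positive (median 0.038), against 53.4% of all transcripts. The mean score of Punta Prieta organ pipe virgin males was -0.0234 at 14 days, 0.186 at 15 days, -0.138 at 16 days, 0.393 at 17 days and 0.409 at 18 days, so the arrays of 16 days were the lowest and no steady order was seen. In females the direction changed with array SD as a covariate: 16 of 80 were positive, with a median of -0.021, and in males 76, with a median of 0.056. Of all transcripts 52.7% were positive in females and 52.2% in males under that setting.

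FBtr0167747 had the largest slope in females, 0.16 per day (SE 0.0592, limma adjusted p = 0.226), followed by FBtr0174959 with 0.15 (SE 0.0596, adjusted p = 0.228). FBtr0164433 had -0.082 (SE 0.0446, adjusted p = 0.282) and FBtr0174016 -0.051 (SE 0.0311, adjusted p = 0.323). In males FBtr0166287 had 0.10 (SE 0.059, adjusted p = 0.609) and FBtr0166009 0.096 (SE 0.0362, adjusted p = 0.435). FBtr0170094 had -0.059 (SE 0.0495, adjusted p = 0.745) and FBtr0174895 -0.016 (SE 0.0278, adjusted p = 0.896). The slopes of both FBtr0166287 and FBtr0166009 turned negative with 15 and 16 day arrays only, to -0.17 and -0.03.

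**Figure D5:**
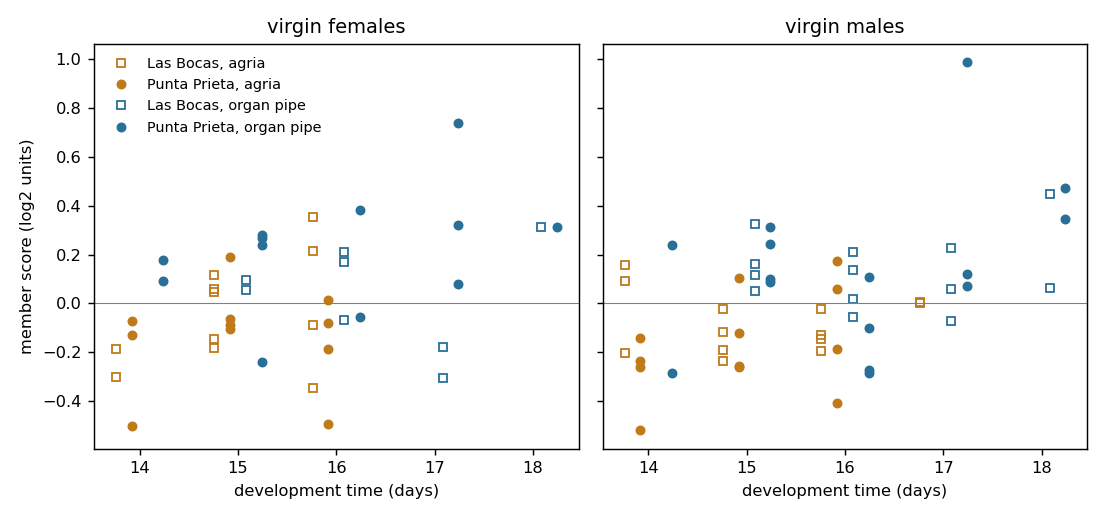
Member score (vertical axis, log2 units) of each virgin array against development time (horizontal axis, days), by population (open squares for Las Bocas, filled circles for Punta Prieta) and diet (colour), shifted sideways to separate groups. All arrays of 18 days and most of 17 days are of flies on organ pipe, and the highest array, at 0.99, is of 17 days.

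Development time and diet overlapped in the choice of the members, because the arrays on organ pipe were on average of later days and the rule made no allowance for days. With a slope in days in the fit the median virgin diet difference was 0.17 in females and 0.17 in males, against 0.21 in both without it. All 80 members were positive in each sex with the slope, as they were by the rule without it. The same virgin arrays chose the members for a positive difference, so these signs are a description. The comparison at matched days, on the arrays of the rule and so a description, could be made in several groups. In Punta Prieta virgin males 74 of 80 were higher on organ pipe at 14 days, 78 at 15 days and 28 at 16 days, with medians of 0.24, 0.29 and -0.056. Of all transcripts 63.7%, 42.8% and 45.3% were higher there. In Las Bocas virgin males 76 were at 15 days, 61 at 16 days and 44 at 17 days, with medians of 0.27, 0.17 and 0.028, against 60.3%, 41.0% and 52.1% of all transcripts. In Punta Prieta virgin females 76, 63 and 77 were higher at 14, 15 and 16 days, against 51.1%, 47.3% and 41.1% of all transcripts. In Las Bocas virgin females 53 and 46 were at 15 and 16 days, with medians of 0.097 and 0.034, against 53.0% and 47.1%. The 16 day Punta Prieta virgin males were thus the only one of these groups with a negative median. In them 3 of 4 organ pipe arrays had scores of -0.287, -0.272 and -0.102. The medians of Las Bocas males of 17 days and Las Bocas females of 16 days were also small.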

How the data were processed

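Whole flies were measured on 137 one-colour NimbleGen arrays, and the authors deposited 1 log2 value for each of 14528 transcripts per array. RMA is named in the submitters' processing notes as the method behind these log2 values, and its version and settings were not given in the sources used here. RMA is meant to set arrays to a near-common distribution, so changes of total RNA cannot be seen and differences of dim transcripts are compressed. The deposited arrays still differed in distribution, with SDs from 1.597 to 1.902 and medians from 11.24 to 11.5. Values ran from 5.829 to 15.89 with 0 missing, and 0 array pairs were identical. The number of arrays limits the precision, and slides and scans were not analysed here.

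From the values as deposited, lmFit and eBayes of limma 3.58.1 (R 4.3.3) were run on 135 arrays, with a mean for each of 16 combinations of population, diet, sex and mating and a slope in days for each sex (117 residual degrees of freedom). P-values were adjusted by Benjamini-Hochberg over 14528 transcripts, with a threshold of 0.05, and the script was tested on simulated data. There a diet difference of 0.25 in mated Punta Prieta flies was recovered in 2% of the changed transcripts in females and 6.5% in males. The members, the tests and the alternatives were chosen with earlier results of these data known. Named are the first 2 members, the last member and the first transcript outside by value, and for each test the 2 largest positive and the 2 largest negative effects, with FBtr0167406 also named for the lowest correlation, after its value was seen.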

Additional observations from a re-analysis of the deposited data

Results flagged for a closer look

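The member score of 1 array lay far from the others of its group in 3 of the 15 groups of 4 to 10 arrays, by Dixon's criterion, where chance alone gives about 1 in 20 groups. In Punta Prieta agria virgin females of 15 days, replicate 1 had 0.189 and the other 3 arrays -0.106 to -0.0645. In Punta Prieta organ pipe virgin females of 15 days, replicate 4 had -0.24 and the others 0.238 to 0.28, and its array SD, 1.699, was below the 1.789 to 1.807 of the others. In Punta Prieta organ pipe mated males of 15 days, replicate 2 had -0.16 and the others -0.0509 to -0.0479. The part that array spread has in these values was not tested.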

How the results depend on the processing

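Members past the threshold numbered 0 in each of the 8 tests, and under all alternatives run but these. With array weights there were 14 for diet in Las Bocas mated females (FBtr0172508 at 1.29 and FBtr0172005 at 1.17 among them), 10 for development time in females (FBtr0167747 at 0.18, FBtr0174959 at 0.14, FBtr0164433 at -0.11 and FBtr0174016 at -0.08 among them) and 2 for diet by population in virgin females. When replicate numbers were left out one by one, the range was 0 to 4 for development time in males, the 4 without number 1, and 0 to 4 for diet by population in virgin females, the 4 without number 2. Over all transcripts the counts were 2 for diet in Punta Prieta mated males, 1 in Las Bocas mated females and 0 in the other tests. With array weights they were 46 and 4641, with 3269 for development time in females, 475 for diet by population in virgin females and 5 in virgin males. With 137 arrays Las Bocas mated females had 2817. For diet by population in virgin females there were 110 with quantile normalisation within sex, 133 without the dimmest transcripts, 11 with centred arrays and 918 without replicate 2. For development time there were 151 in males without replicate 1 and 87 in females with 15 and 16 day arrays.

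The rule chose 64 of the 80 again with arrays centred on their medians, 51 without the 6 arrays of weakest separation between the sexes, 50 with the slope on array SD removed, 27 with 15 and 16 day arrays, 27 with medians in place of means, 26 with wider filters and 12 with narrower ones, and 10 to 75 when replicate numbers were left out one by one. The removal of that slope, and the alternatives without arrays of high or low member score, were chosen after seeing the data.

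Effects of named members changed sign as follows. In Punta Prieta mated females FBtr0172712 had 0.00993 with array weights, 0.18 with 15 and 16 day arrays and 0.19 without the 2 agria arrays of highest score, FBtr0172508 had 0.087 and 0.037 under the latter 2, and over the replicates left out FBtr0172712 ran from -0.43 to 0.30 and FBtr0172508 from -0.46 to 0.055. FBtr0171038 had 0.48 in Las Bocas mated females with 137 arrays. For diet by population in females, over the replicates left out, FBtr0165853 ran from -0.60 to 0.10 and FBtr0166625 from -0.29 to 0.068, and the latter had 0.000184 with 15 and 16 day arrays. For development time with 15 and 16 day arrays FBtr0174016 had 0.049 in females, and FBtr0166287 had -0.17 and FBtr0166009 -0.0299 in males. FBtr0174895 had 0.017 in males on organ pipe alone. The cause was not tested.

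No pairing of arrays by replicate number was seen: the median r of deviations was -0.0196 over 1076 same-numbered pairs and 0.00378 over 2778 others. The pairs share arrays, and these medians cannot show that no pairing exists. With the replicate number as a block (replicate block) 0 members passed in each test, with medians of 0.046 in Punta Prieta mated females and 0.30 for diet by population in virgin females. No organ pipe array was left, and so no value, for Las Bocas mated males without replicate 1 and for Las Bocas mated females without replicate 2 or without the arrays whose description differs.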
